A study of Rattus norvegicus with 4 samples.

Results

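The genes described here belong to the oxidative stress response and were followed in rat pituitary tumour cells given UNC9994. They are the transcription factor gene Nfe2l2 (ENSRNOG00000001548), which encodes Nrf2, and the Nrf2 target genes Hmox1 (ENSRNOG00000014117), Nqo1 (ENSRNOG00000012772) and Gclc (ENSRNOG00000006302). They were taken by gene ID and are 4 of the 33832 gene IDs in the deposited table. All 4 were among the 14056 IDs that passed the filter on low reads, each with at least 902 reads in every library. The symbols came with the IDs and could not be checked against the files, which pair no ID with a name.

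The cells were MMQ, an established line from a rat pituitary tumour, grown in medium with horse serum and fetal bovine serum. One culture condition received UNC9994, a ligand of the dopamine D2 receptor named an agonist by the submitters, at 15 µM, and the control received the vehicle DMSO. In lactotrophs, the prolactin-secreting cells of the pituitary that MMQ cells stand for, dopamine acts through this receptor to restrain secretion. RNA was taken after 12 h or 24 h, which gives 4 combinations of treatment and time. Each combination is 1 polyadenylated RNA library, and nothing in the sources used here says whether cultures were separate. A difference between 2 libraries therefore has no replicate check, and culture, library and condition cannot be told apart in it. The p-values below rest on the spread among these 4 libraries, with the pair of times standing in for replicates. That spread is drawn more from all IDs than from the gene itself. The libraries held 17433867 to 21728374 reads, recovered from the deposited values. Lactotroph markers and markers of other cell types are not analysed here, because no table at hand joins their symbols to the IDs. In bulk RNA, a change in the number of cells that express a gene and a change in RNA per cell cannot be told apart.

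Nrf2 is held in the cytoplasm by Keap1, which hands it to the proteasome. Oxidants and electrophiles modify Keap1, after which Nrf2 builds up in the nucleus and, with small Maf partners, binds antioxidant response elements near its targets. Control of Nrf2 is thus largely at the level of the protein. Among its targets, Hmox1 encodes haem oxygenase, which breaks haem down to biliverdin, iron and carbon monoxide. Nqo1 encodes a quinone reductase, and Gclc encodes the catalytic subunit of the enzyme that starts glutathione synthesis. Hmox1 is also induced through other factors, among them heat shock factor and AP-1, and is repressed by Bach1.

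The 4 genes fell into pairs. Nqo1 and Hmox1 were 3.02-fold and 2.92-fold higher with UNC9994 than with DMSO at 12 h, and 4.19-fold and 2.57-fold higher at 24 h. Nfe2l2 and Gclc differed by at most 1.11-fold between treatments at either time. In a fit across all IDs with terms for time and treatment, 2 of the 4 genes rose with UNC9994 and 0 fell (limma, adjusted p under 0.05), where 3.41% of all tested IDs rose and 5.16% fell. At least 2-fold higher levels with UNC9994 were found for 2 of the 4 at 12 h, against 1.93% of the IDs compared, and for the same 2 at 24 h, against 1.37%. Both genes passed 2-fold at each time, as 0.601% of IDs did. The 4 genes were chosen with earlier results of these data known, so these shares give a background and not an independent test. The median log2 change over the 14056 IDs was 0.00019, and a value near 0 follows from the scaling of the deposited FPKM. The median over the 4 genes was 0.70, the midpoint of the gap between the 2 genes that rose and the other 2, and the value of none of them.

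**Figure D1:**
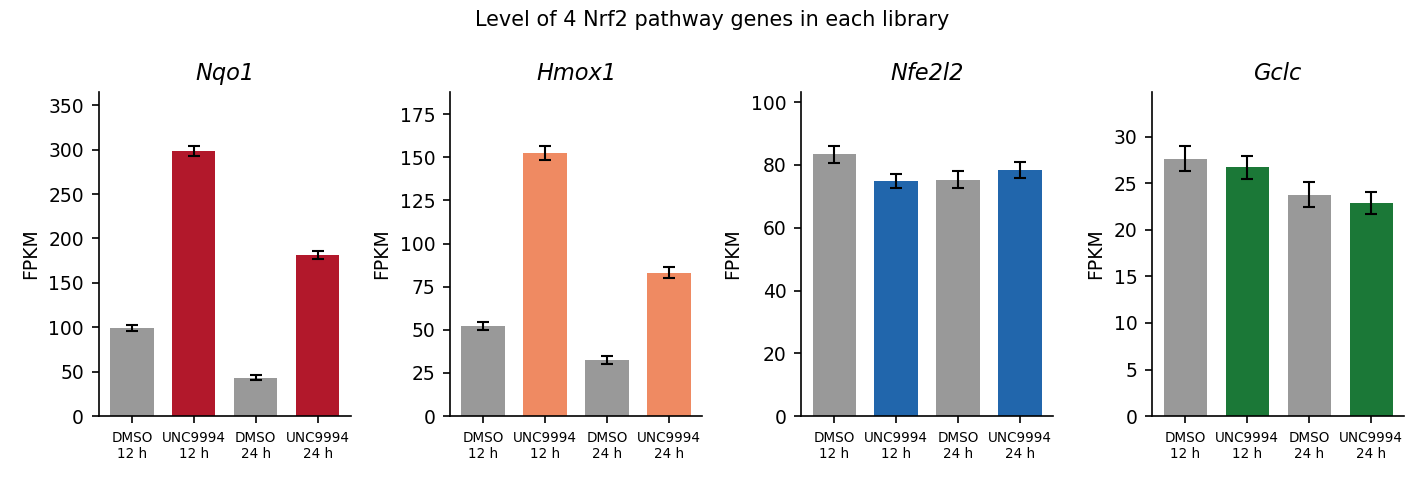
Level of each gene in FPKM, a level per gene model length scaled between libraries, in the 4 libraries, one panel per gene with its own axis from 0. Grey bars are DMSO and coloured bars UNC9994, and error bars are exact 95% Poisson limits that cover counting error only. Nqo1 and Hmox1 were higher in both UNC9994 libraries than in both DMSO libraries, while Nfe2l2 stayed between 74.9 and 83.4 FPKM and Gclc between 22.8 and 27.7 FPKM.

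Nqo1 showed a larger response than Hmox1 at 24 h, while at 12 h the counting intervals of their ratios overlapped. The level of Nqo1 was 98.8 FPKM in DMSO at 12 h, 298 FPKM in UNC9994 at 12 h, 43.2 FPKM in DMSO at 24 h and 181 FPKM in UNC9994 at 24 h. These values rest on 3122, 10710, 1212 and 6149 reads over a gene model of 1579 bases. Both UNC9994 libraries were above both DMSO libraries, and the DMSO library at 24 h was the lowest. Nqo1 was 3.02-fold higher with UNC9994 at 12 h (95% exact binomial interval from the reads 2.90 to 3.15) and 4.19-fold higher at 24 h (3.94 to 4.46). These intervals, and those that follow for ratios, cover counting error only. The ratio ranked 66th from the top of 10810 IDs at 12 h and 36th of 10785 at 24 h. The change common to both times was 1.82 ± 0.12 on the log2(FPKM + 0.5) scale (SE, 4 libraries), a 3.54-fold rise with 95% limits of 2.85 to 4.40 (limma adjusted p = 0.0065, higher at 2 of 2 times). It ranked 22nd of the 14056 IDs. Each SE from the limma fit, with its limits, weights a prior from all IDs (4.48 degrees of freedom) above the gene's own spread (1). Such an SE is not the scatter of that gene alone in the 4 libraries.

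Hmox1 rose as well. Its level was 52.1 FPKM in DMSO at 12 h, 152 FPKM in UNC9994 at 12 h, 32.4 FPKM in DMSO at 24 h and 83.2 FPKM in UNC9994 at 24 h, from 1634, 5424, 902 and 2799 reads over 1566 bases. As for Nqo1, the treated libraries lay above both vehicle libraries, and the lowest value was that of DMSO at 24 h. Hmox1 was 2.92-fold higher with UNC9994 at 12 h (2.77 to 3.09) and 2.57-fold higher at 24 h (2.38 to 2.77), 70th from the top at each time. The common change was 1.44 ± 0.08 (SE, 4 libraries), a 2.72-fold rise with 95% limits of 2.35 to 3.14 (limma adjusted p = 0.0065, higher at 2 of 2 times).

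The calls for Nqo1 and Hmox1 depended on the fit. Both log2 changes were above 1 in every fit, but all fits reuse the same libraries. With all 4 libraries kept, changing the filter, the variance trend or the time term leaves the log2 change itself as it was. It stayed at 1.82 for Nqo1 and 1.44 for Hmox1, and only its error moved. Both missed the threshold with no filter on low reads (limma adjusted p = 0.11 for each), with no trend in the prior variance (0.052 for each) and with no time term (0.060 for Nqo1 and 0.061 for Hmox1). The first 2 of these fits called 0 IDs, while the fit with no time term called 851, of which 323 rose. Leaving out 1 library sets both times of a treatment against only 12 h or only 24 h of the other. A difference between times then enters the treatment effect. With 1 library left out and no time term, Nqo1 gave 2.41 without DMSO at 12 h (limma adjusted p = 0.056), 1.23 without DMSO at 24 h (0.11), 1.46 without UNC9994 at 12 h (0.14) and 2.18 without UNC9994 at 24 h (0.042). Hmox1 gave 1.78 (0.10), 1.10 (0.16), 1.01 (0.11) and 1.88 (0.014) in the same order.

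The DNA before the Nqo1 start is shown because this gene had the largest change of the 4 and because Nrf2 acts through a short motif. Of the 4 genes, 3 matched the RefSeq promoter table by symbol (build GRCr8), and Hmox1 did not. The submitters' processing notes name another build, Rnor_6.0, so these positions are not those of the deposited table. The stretch is chr19:52220268-52220517 on the minus strand, the 250 bases before the start, with TATAAA, the motif of many core promoters, in capitals.
Nqo1: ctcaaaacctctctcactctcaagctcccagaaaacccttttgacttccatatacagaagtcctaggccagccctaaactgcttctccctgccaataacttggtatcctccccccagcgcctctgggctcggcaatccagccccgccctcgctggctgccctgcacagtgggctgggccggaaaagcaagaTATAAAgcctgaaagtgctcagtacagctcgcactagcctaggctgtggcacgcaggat

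The antioxidant response element core TGACNNNGC was searched on both strands of the 300 bases from 250 before to 50 after each start. It was not in the window of Nqo1 or Gclc, and was in 12.1% of all 33469 windows. It was in the window of Nfe2l2, a gene that did not pass the test, beginning 39 bases into the transcript. The AP-1 motif TGANTCA, which can overlap the antioxidant element, was in none of the 3 windows and in 7.33% of all. TATAAA was in the windows of Nqo1, beginning at -59 from the start, and Gclc, at -244, and in 14.2% of all. These matches describe letters in a short window, and elements farther away were not searched. A window without the core therefore does not show that the gene lacks the element. The 30 bases around the match in Nfe2l2 are shown with the motif in capitals, from chr3:81028950-81028979 of GRCr8 on the minus strand.
Nfe2l2: actgctccgactagccatTGACGCCGCctc

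Nfe2l2 itself, the gene of the factor, did not pass the test for treatment. Its level was 83.4 FPKM in DMSO at 12 h, 74.9 FPKM in UNC9994 at 12 h, 75.3 FPKM in DMSO at 24 h and 78.4 FPKM in UNC9994 at 24 h, from 3850, 3927, 3085 and 3885 reads over 2307 bases. The treated values lay inside the range of the vehicle values except at 12 h, where UNC9994 gave the lowest of the 4 by a narrow margin. At 12 h the ratio of UNC9994 to DMSO was 0.898 (0.859 to 0.940), and at 24 h it was 1.04 (0.993 to 1.09). The common log2 change was -0.05 ± 0.09 (SE, 4 libraries, limma adjusted p = 0.75), with limits on the fold of 0.834 to 1.12. A rise of the size seen for Hmox1 lies outside these limits.

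Gclc, the glutathione synthesis gene, did not pass the test either. Its level was 27.7 FPKM in DMSO at 12 h, 26.7 FPKM in UNC9994 at 12 h, 23.8 FPKM in DMSO at 24 h and 22.8 FPKM in UNC9994 at 24 h, from 1686, 1848, 1285 and 1494 reads over 3045 bases. The 2 libraries of each time were close, and both 24 h libraries were below both 12 h libraries. Drug over vehicle gave 0.965 at 12 h, with an interval of 0.903 to 1.03, and 0.961 at 24 h, with one of 0.891 to 1.04. The common log2 change was -0.05 ± 0.08 (SE, 4 libraries, limma adjusted p = 0.71), with limits on the fold of 0.836 to 1.11.

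**Figure D2:**
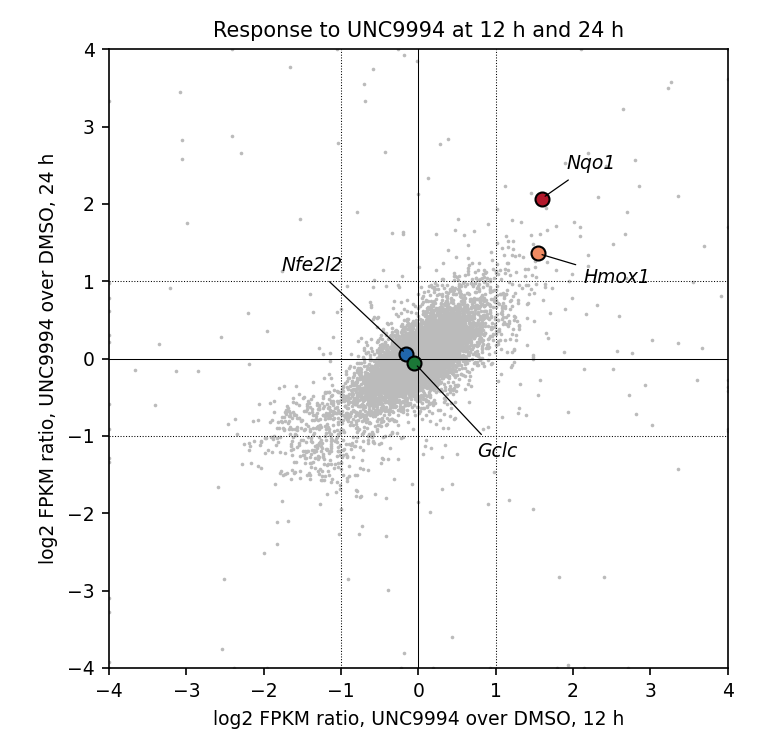
Log2 FPKM ratio of UNC9994 over DMSO at 12 h (horizontal) and at 24 h (vertical), which share no library, for 10952 IDs (grey) and the 4 genes (coloured). Dotted lines mark 2-fold and IDs beyond the axes are drawn at the edge. Nqo1 (1.60 and 2.07) and Hmox1 (1.55 and 1.36) lie in the upper right, and Nfe2l2 (-0.15 and 0.06) and Gclc (-0.05 and -0.06) near the origin.

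For the 2 genes that rose, the ratios at the 2 times were set side by side, each from 1 library against 1. The log2 ratio of Nqo1 was 0.47 higher at 24 h than at 12 h, and that of Hmox1 was lower at 24 h by a difference of -0.19. In size, the difference of Nqo1 was at or above that of 89.6% of 10952 IDs, and the difference of Hmox1, near the middle of all IDs, at or above that of 56.4%. On the linear scale the increase was larger at 12 h for both genes. Nqo1 gained 199.7 FPKM at 12 h and 138 FPKM at 24 h, and Hmox1 gained 100.3 FPKM and 50.8 FPKM. Since 4 libraries leave no degree of freedom for it, the difference between times was not tested.

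Nqo1 and Hmox1 were also lower at 24 h than at 12 h, in vehicle as well as in drug. Nqo1 was 2.29-fold lower at 24 h in DMSO (2.14 to 2.44) and 1.65-fold lower in UNC9994 (1.60 to 1.70). Hmox1 was 1.61-fold lower in DMSO (1.48 to 1.75) and 1.83-fold lower in UNC9994 (1.75 to 1.92). Nqo1 was thus 1 of the 4 genes at least 2-fold lower at 24 h in DMSO, where 0.534% of 10682 IDs were. Gclc was 1.16-fold lower in DMSO (1.08 to 1.25) and 1.17-fold lower in UNC9994 (1.09 to 1.25). Nfe2l2 was 1.11-fold lower at 24 h in DMSO (1.06 to 1.16) and 1.05-fold higher in UNC9994 (1.00 to 1.09).

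The time effect common to both treatments was -0.95 ± 0.12 for Nqo1 and -0.77 ± 0.08 for Hmox1 on the log2(FPKM + 0.5) scale (SE, 4 libraries). They ranked 49th and 76th from the lowest of 14056 IDs. Neither passed the threshold (limma adjusted p = 0.21 and 0.20, unadjusted 0.00041 and 0.00015), nor did any of the 14056 IDs (0%, with 1041 at an unadjusted p under 0.05, and 0 with limma-voom too). When the filter required a CPM (the reads of a gene scaled by the total of its library) of at least 5 in 2 libraries, both did (limma adjusted p = 0.043 for Nqo1 and 0.035 for Hmox1), among 23 of 10690 IDs called in either direction (0.215%). The effect was -0.22 ± 0.08 for Gclc (limma adjusted p = 0.66) and -0.04 ± 0.09 for Nfe2l2 (0.94). The treatment and time effects are read from the same 4 libraries.

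**Figure D3:**
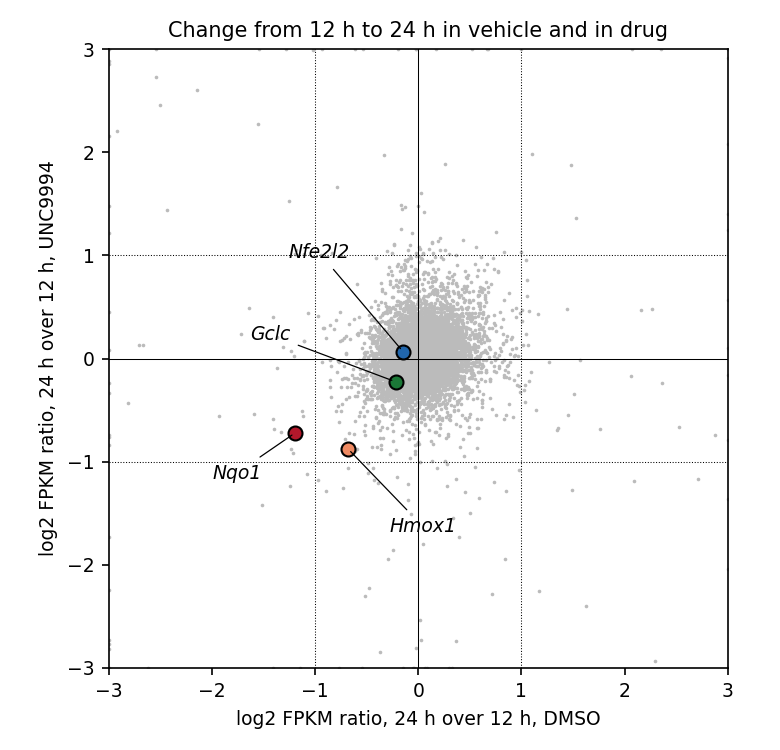
Log2 FPKM ratio of 24 h over 12 h in DMSO (horizontal) and in UNC9994 (vertical), for the same 10952 IDs (grey) and the 4 genes (coloured), with dotted lines at 2-fold and IDs beyond the axes at the edge. Nqo1 (-1.19 and -0.72) and Hmox1 (-0.68 and -0.87) lie at the lower left of the cloud, Gclc (-0.22 and -0.23) less so, and Nfe2l2 (-0.15 and 0.07) close to the origin.

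**Figure D4:**
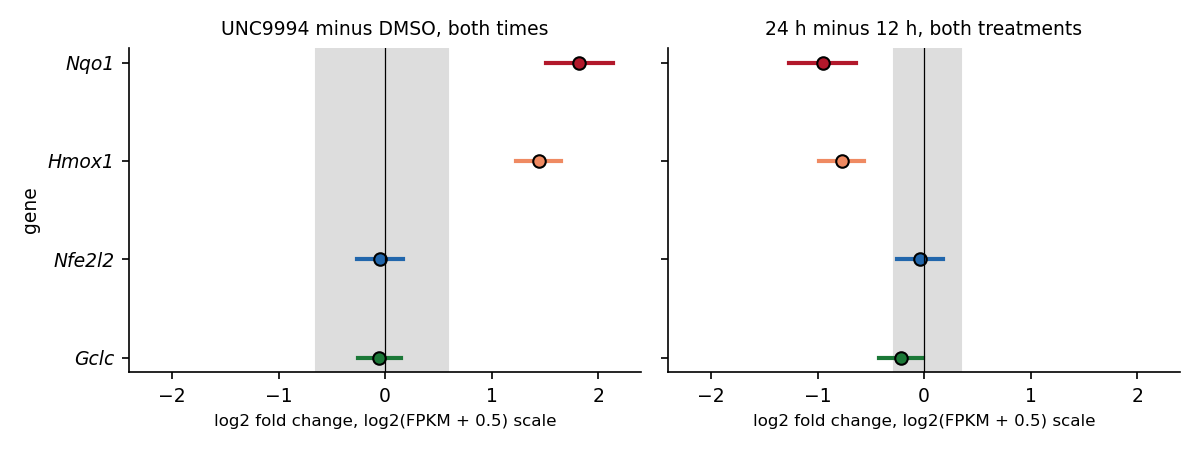
Treatment effect (left) and time effect (right) of each gene from the limma fit, as points with 95% limits on the log2(FPKM + 0.5) scale; the grey band holds the middle 90% of the 14056 tested IDs. Nqo1 and Hmox1 lie outside the band in both panels, above it for treatment and below it for time, and Nfe2l2 and Gclc lie inside it.

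Nqo1 and Hmox1, higher with UNC9994 at each time and lower at 24 h in each treatment, had the same order of libraries. From high to low it was UNC9994 at 12 h, UNC9994 at 24 h, DMSO at 12 h and DMSO at 24 h, an order shared by 7.54% of the 14056 IDs. The UNC9994 library at 24 h exceeded the DMSO library at 12 h for both genes, at 181 against 98.8 FPKM for Nqo1 and 83.2 against 52.1 FPKM for Hmox1. Likeness of pattern was measured as the distance between the 4 centred log2(FPKM + 0.5) values, over these 4 libraries only. Among 11783 IDs, Hmox1 was the third nearest to Nqo1, and Nqo1 was the 10th nearest to Hmox1, at a distance of 0.534. The ID nearest to Hmox1 was ENSRNOG00000026293, at a distance of 0.326, with 5.58 and 2.64 FPKM in DMSO and 14.2 and 6.54 FPKM in UNC9994 at 12 h and 24 h. The ID nearest to Nqo1 was ENSRNOG00000056498, at a distance of 0.493, with 1.37 and 0.724 FPKM in DMSO and 5.23 and 4.04 FPKM in UNC9994. At such low levels the added 0.5 shrinks ratios more than it does for Nqo1, so this closeness depends in part on it. For Nfe2l2 and Gclc, 9252 and 8601 of the 11783 IDs lay within 0.5, so their nearest IDs are not named.

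The order of the 4 genes by level, which FPKM allows because it is per length, changed with treatment. In DMSO at 12 h it was Nqo1, Nfe2l2, Hmox1 and Gclc, and in DMSO at 24 h Nfe2l2 was first and Nqo1 the second. In UNC9994 at 12 h it was Nqo1, Hmox1, Nfe2l2 and Gclc. The order was the same in UNC9994 at 24 h, where the counting limits of Hmox1 (80.1 to 86.3 FPKM) and Nfe2l2 (75.9 to 80.9 FPKM) overlapped. The level of Nqo1 relative to Nfe2l2 was 1.18 in DMSO at 12 h and 0.574 in DMSO at 24 h, against 3.98 and 2.31 in UNC9994. That of Nfe2l2 relative to Gclc stayed between 2.80 and 3.43 in all 4 libraries. Set among the 14056 tested IDs, Nqo1 was above 84.5% to 98.4% of them by FPKM, depending on the library, Hmox1 above 79.0% to 96.7%, Nfe2l2 above 91.9% to 92.5% and Gclc above 70.9% to 75.0%.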

How the data were processed

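The authors deposited FPKM per gene ID, per the file headers, in 1 table of 4 columns and in single-sample tables with the same values. Though named for raw counts, the table holds FPKM by header and values. CASAVA, TopHat2 2.0.7, Bowtie2, HTSeq and the build Rnor_6.0 appear in the submitters' processing notes, without their roles. Strand and annotation release: not given in the sources used here. Median-of-ratios factors of the deposited values over 16009 IDs were equal within 8.7e-11, so that scaling as an alternative changes nothing, and a median change near 0 over all IDs follows from it. Division by such factors is inferred from the values and stated by no source used here. After removal of 1209 repeated rows and 1 truncated ID, all listed at 0, 33832 IDs were left.

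Whole reads were recovered by finding, for each ID, the shortest gene model of at least 40 bases that makes all values whole within 0.001 reads (plus 1e-08 of the value). This worked for 16009 of 16009 IDs above 0 in every library, and for 0 of 500 with disturbed values. The 500 were drawn only from IDs well covered in all 4 libraries, so IDs with few reads were not checked in this way. A factor common to all 4 read numbers of an ID cannot be seen. Recovered reads served for filters and counting intervals and in 1 alternative fit, limma-voom, run with library totals.

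limma 3.58.1 (R 4.3.3) was fitted to log2(FPKM + 0.5) of 14056 IDs with at least 10 reads in 2 libraries, with terms for time and treatment, a variance trend, and Benjamini-Hochberg adjustment at 0.05. It has 1 residual degree of freedom, from how far the response differed between times, and 4.48 prior ones from the trend over all IDs. The error of each gene is thus weighted towards the prior. Pairs of libraries were compared as FPKM ratios without a pseudocount, over IDs with a CPM of at least 5 in either library. Scripts were tested on simulated data. Text names the 4 genes and, for Nqo1 and Hmox1, the ID nearest in pattern. The genes and lists were chosen with earlier results of these data known. The 12 lists of 90 other genes (Nrf2 pathway and cell types) are not analysed here, since 0 of 47357 genes in the table at hand carry an Ensembl ID.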

Additional observations from a re-analysis of the deposited data

Results flagged for a closer look

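Nfe2l2 was lower with UNC9994 at 12 h (log2 ratio -0.15) and higher at 24 h (0.058), the only gene of the 4 with opposite signs at the 2 times. Each value rests on 1 library per treatment, and the difference between the times was not tested. The counting interval at 24 h, 0.993 to 1.09 as a ratio, includes 1, while that at 12 h, 0.859 to 0.940, does not.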

How the results depend on the processing

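Of 4 genes, 2 were called for treatment, with pseudocounts of 0.1 and 1, the stricter filter, robust moderation, total-read scaling and limma-voom as well. Median-of-ratios scaling only repeats the reported fit, since its factors were equal. None (0) was called when low IDs were kept, when the prior variance had no trend or when the time term was dropped, and 0 to 2 when 1 library was left out with no time term. Over all IDs, the same fit called 1204, against 0 with low IDs kept (3795 at an unadjusted p under 0.05), 0 without the trend (3660), 1979 where 2 libraries had to reach a CPM of 5, 851 without the time term, and 86 to 782 when 1 library was left out as well as the time term. For time, that stricter filter called 2 of the 4 genes and 23 IDs in all, robust moderation 5 IDs and a pseudocount of 0.1 called 2 IDs, where the reported fit called 0. The sign of the treatment effect turned for Nfe2l2 without DMSO at 12 h (0.025) and for Gclc without DMSO at 12 h (0.055) and without UNC9994 at 24 h (0.058), none of them called. With 1 library left out, Nfe2l2 ranged from -0.12 to 0.025 and Gclc from -0.16 to 0.058. Those fits set both times of a treatment against only 12 h or only 24 h of the other, so a difference between times enters them. IDs past 2-fold numbered 607 at 12 h (1082 with a CPM of at least 1, 365 with at least 20), 411 at 24 h (808 and 214), 104 with time in DMSO (337 and 40) and 134 with time in UNC9994 (389 and 51). The 2 comparisons with time between single libraries were added after seeing the data. Beyond that feature of the fits with 1 library left out, the cause of each shift was not tested.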
